A study of Mus musculus with 8 samples.

Results

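The genes that encode collagen chains were examined across cultures of Ebf1-deficient mouse pro-B cells, as a measure of RNA of the kind that stromal cells make in each RNA sample. Members were all genes whose symbol consists of Col, a type number, a and a chain number. Of 44 such genes in the gene table, 42 had a named probe (61 probes in all), out of 20125 named genes on the array, and Col6a3 and Col12a1 had none. Where a gene had several probes, the brightest by its mean in the deposited matrix stood for it, which applied to 14 of the 42 genes. By the structure that the protein forms, 11 genes were fibrillar, 9 were network-forming and 22 belonged to other classes. The rule for members uses gene symbols and the mean level over all arrays, but collagens were taken up as a subject with earlier results of these data known.

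All 4 groups were Ebf1-deficient pro-B cell lines from mouse fetal liver progenitors, which lack the B-lineage factor EBF1 and were grown on stromal cells with SCF, Flt3L and IL-7, and each group had 2 arrays. The line with T-lineage potential, pro-B(+), was maintained on OP9, a stromal line from mouse calvaria, which the study describes as treated with mitomycin C. The line without it, pro-B(-), was maintained on TD7, a mesenchymal line from fetal thymus, for which no such treatment is named. Pro-B(-) cells that carried an empty lentiviral vector with a rat CD2 reporter (pro-B(-)/Mock, called Mock) or the same vector with mouse Lmo2 (pro-B(-)/LMO2, called LMO2) were also profiled, and the labels give neither the stromal cells nor the Notch ligand of these cultures. The study also reports that both lines grew on OP9 cells. The array methods and sample titles do not name the stromal cells of the parental cultures used for RNA. If each line kept its maintenance stroma, the stromal line, its treatment and the pro-B line differed together between the parental groups. Their parts then cannot be told apart. Nothing in the labels says whether replicates were separate cultures. The study describes its data on the parental lines as biological replicates and the sources used here say nothing of the transductants, for which p-values may measure only technical spread.

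Collagens are trimeric proteins of the extracellular matrix, in which each chain winds around its partners in a triple helix. Fibrillar collagens (types I, II, III, V and XI) build the fibres of bone, cartilage and connective tissue, type IV collagens build the sheet of basement membranes, and type VI collagen forms beaded filaments around cells. Fibroblasts, osteoblasts and other mesenchymal cells are their main source, and blood progenitors are not known as producers of fibrillar collagen.

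The arrays measured bulk total RNA, so that fewer cells of a type and less RNA per cell cannot be told apart, and the sources used here do not say whether the pro-B cells were separated from the stromal cells before extraction. Values are log2 of the processed signal minus the 75th percentile of the array, so that 0 marks the upper quartile of all probes of an array, and a probe was called well above background by the scanner software. Between 56.5% and 61.2% of probes passed this flag on an array and no spot was saturated. Replicate arrays correlated at r = 0.9988 to 0.9991 over the 20376 probes above background on all 8 arrays. The 2 parental groups shared 1 slide and the transductants another, so that slide and group cannot be told apart in the comparison of Mock with pro-B(-). Lmo2 had mean levels of 2.10 in pro-B(+), 0.63 in pro-B(-), 0.35 in Mock and 0.96 in LMO2 cells. The Ebf1 probe was above background on all 8 arrays, with means of 1.33, 1.52, 1.49 and 1.13 in that order, and since its position relative to the deleted part was not examined it does not check the deletion. Ptprc, Kit, Il7r, Flt3, Rag1, Rag2, Cd34 and Ikzf1, which mark blood progenitors and early lymphoid cells, were above background on all 8 arrays.

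A RefSeq promoter entry (build GRCm38.p6, a window of 300 bases that covers the start of the gene) was found for 34 of the 42 genes. The promoters of 4 members that the results turn on are shown to compare a pair of neighbours, of which Col4a1 rose in pro-B(+) cells and Col4a2 was not called, with other genes that rose there. Col4a1 and Col4a2 encode the common chains of basement membrane collagen and lie head to head, with no other protein-coding gene between them. Their windows share 78 bases (chr8:11312777-11312854). Col6a1 encodes a chain of type VI collagen and Col1a2 the second chain of type I collagen. Capitals mark the letters CCAAT, which read ATTGG on the other strand, and the letters GGGCGG, which read CCGCCC there. The windows are chr8:11312777-11313076 on the minus strand for Col4a1, chr8:11312555-11312854 on the plus strand for Col4a2, chr10:76725995-76726294 on the minus strand for Col6a1 and chr6:4505368-4505667 on the plus strand for Col1a2.
Col4a1: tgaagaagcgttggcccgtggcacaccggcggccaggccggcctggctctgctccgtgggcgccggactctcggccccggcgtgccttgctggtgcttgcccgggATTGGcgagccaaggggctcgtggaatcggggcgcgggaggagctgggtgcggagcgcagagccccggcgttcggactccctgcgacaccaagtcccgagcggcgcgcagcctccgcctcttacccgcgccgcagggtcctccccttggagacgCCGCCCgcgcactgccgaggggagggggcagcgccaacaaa
Col4a2: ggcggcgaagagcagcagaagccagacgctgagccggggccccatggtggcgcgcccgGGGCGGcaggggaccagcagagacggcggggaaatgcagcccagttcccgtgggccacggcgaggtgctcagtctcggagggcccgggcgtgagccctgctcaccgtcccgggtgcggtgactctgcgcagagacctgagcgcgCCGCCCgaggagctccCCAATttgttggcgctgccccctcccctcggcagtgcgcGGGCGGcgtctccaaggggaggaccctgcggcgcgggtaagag
Col6a1: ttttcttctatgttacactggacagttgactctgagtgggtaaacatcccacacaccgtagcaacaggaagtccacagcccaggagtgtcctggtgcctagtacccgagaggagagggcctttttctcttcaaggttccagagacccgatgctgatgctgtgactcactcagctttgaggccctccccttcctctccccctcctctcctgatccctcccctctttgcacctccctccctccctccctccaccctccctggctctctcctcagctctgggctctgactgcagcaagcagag
Col1a2: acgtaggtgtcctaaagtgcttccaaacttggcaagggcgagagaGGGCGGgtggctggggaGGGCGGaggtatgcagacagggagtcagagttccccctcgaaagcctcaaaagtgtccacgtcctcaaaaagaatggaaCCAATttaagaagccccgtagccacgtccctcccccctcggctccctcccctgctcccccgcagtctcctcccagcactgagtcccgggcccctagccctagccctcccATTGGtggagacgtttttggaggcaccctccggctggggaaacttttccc

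The letters CCAAT occurred on either strand in 12289 of 32851 mouse promoters of this length (37.4%) and in 13 of the 37 collagen entries (35.1%). GGGCGG occurred in 11714 promoters (35.7%) and in 23 of the collagen entries (62.2%), and TATAAA in 4473 promoters (13.6%) and in 5 collagen entries (13.5%). Col4a1 held 1 match to CCAAT and 1 to GGGCGG, Col4a2 held 1 and 3, Col1a2 held 2 and 2, and Col6a1 held neither. None of the 4 windows held TATAAA. Matches are given as a description of the sequences, with no test of binding.

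Of the 42 collagen genes, 17 were well above background on all 8 arrays, 10 on some arrays and 15 on no array. The always-detected genes were 6 of 11 fibrillar collagens (Col1a1, Col1a2, Col2a1, Col3a1, Col5a1 and Col11a2), 3 of 9 network collagens (Col4a1, Col4a2 and Col4a6) and 8 of 22 others (Col6a1, Col6a2, Col7a1, Col9a2, Col14a1, Col16a1, Col18a1 and Col23a1). Among the genes on no array were the fibrillar chains Col5a2, Col11a1, Col24a1 and Col27a1, the network chains Col4a3, Col8a1 and Col10a1, and 8 of the other classes, namely Col6a4, Col6a5, Col6a6, Col13a1, Col15a1, Col19a1, Col22a1 and Col28a1. Col15a1 stood between -8.31 and -5.67 on the 8 arrays, and its 2 further probes were each above background on 1 array only. Col5a2, with values between -7.88 and -6.0, which lies next to Col3a1, was thus not above background although its neighbour was.

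Genes measured on some arrays included Col5a3, on 6 arrays, Col20a1, on 7, Col4a4, on 6, and Col4a5, on 4. Col8a2, Col9a1, Col9a3 and Col25a1 were above background on 2 arrays each, and Col17a1 and Col26a1 on 1 each. Col9a3, which encodes a chain of the cartilage collagen type IX, was above background on both LMO2 arrays and on none of the other 6.

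**Figure D1:**
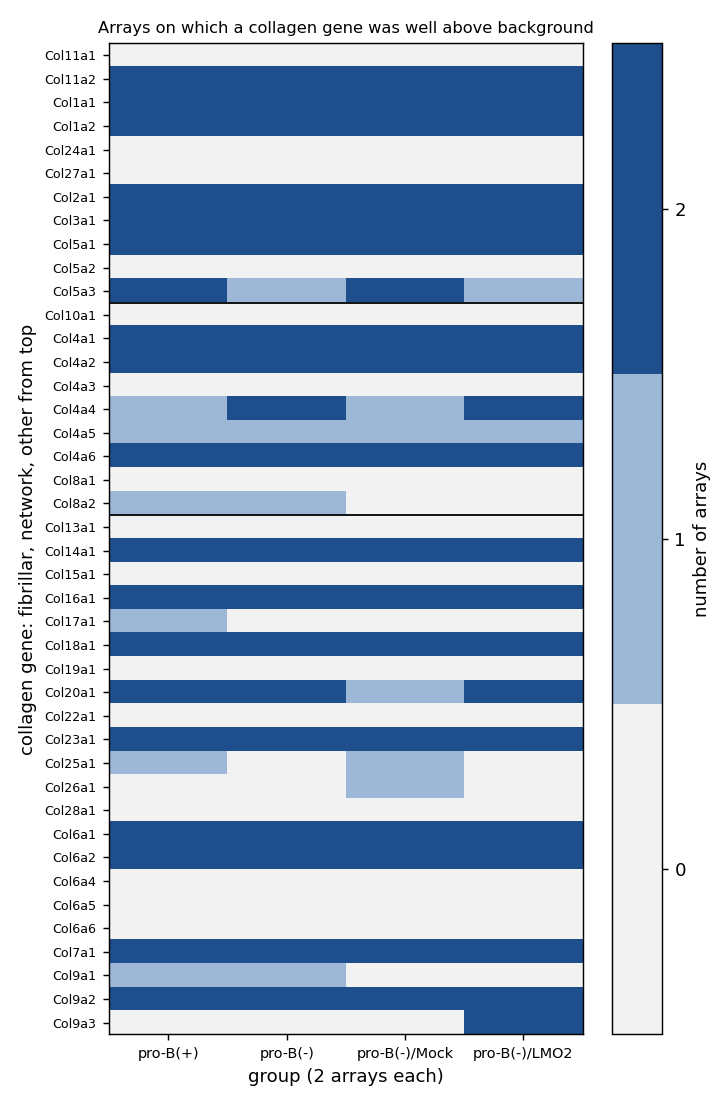
Number of arrays (0, 1 or 2, by shade) on which the probe of each of the 42 collagen genes (rows, with fibrillar, network and other classes separated by lines) was well above background in the 4 groups (columns). The 17 fully dark rows are the genes measured on all 8 arrays, and 15 rows are blank.

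Among fibrillar chains, the levels of Col1a1 and Col1a2, the chains of type I collagen, were lowest in pro-B(-) cells. Col1a1 had normalized log2 levels of -0.72 and -0.73 in pro-B(+), -2.34 and -2.42 in pro-B(-), -0.74 and -0.74 in Mock and -0.53 and -0.48 in LMO2 cells. Col1a2 had levels of 2.11 and 1.92, 0.68 and 0.55, 1.89 and 1.82, and 2.09 and 1.94 in the same order of groups. For both genes the pro-B(-) arrays lay under the other 6, and for Col1a2 the pro-B(+) and LMO2 arrays overlapped. Col2a1, the chain of cartilage fibrils, had levels of -0.05 and -0.34 in pro-B(+), -2.56 and -2.69 in pro-B(-), -0.54 and -0.45 in Mock and -0.44 and -0.45 in LMO2 cells. Col5a1, which regulates the thickness of type I fibrils, had levels of -2.97 and -2.91, -4.36 and -4.21, -2.84 and -3.01, and -2.41 and -2.51. Both again were lowest in pro-B(-) cells, Col2a1 was highest in pro-B(+) cells, and Col5a1 was highest in LMO2 cells.

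The other fibrillar chains followed different orders. Col3a1, the partner of type I collagen in soft tissue, had levels of -3.97 and -4.15 in pro-B(+), -5.17 and -4.49 in pro-B(-), -5.17 and -5.11 in Mock and -5.58 and -5.87 in LMO2 cells. It was highest in pro-B(+) and lowest in LMO2 cells, and its replicates in pro-B(-) cells lay far apart. Col5a3 stood at -3.77 and -3.78 in pro-B(+) cells and between -5.89 and -5.20 on the other 6 arrays. Col11a2, a chain of the cartilage fibril, stood between -3.24 and -3.01 on the parental arrays, at -2.58 and -2.88 in Mock cells and at -1.87 and -1.90 in LMO2 cells.

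Of the network chains, Col4a1 spanned a wider range of levels than Col4a2. Col4a1 had levels of -2.87 and -2.76 in pro-B(+), -4.31 and -4.29 in pro-B(-), -3.76 and -3.91 in Mock and -2.87 and -2.71 in LMO2 cells. Col4a2 had levels of -2.82 and -2.82, -2.78 and -2.71, -2.67 and -2.69, and -2.76 and -2.96. The groups were separate for Col4a1 except that pro-B(+) and LMO2 cells overlapped, whereas the 8 values of Col4a2 lay within -2.96 and -2.67. Col4a6, a chain of specialised basement membranes, stood between -3.51 and -3.42 on the parental arrays and between -4.21 and -3.92 on the transductant arrays.

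Of the other classes, the type VI chains had their highest levels in pro-B(+) cells. Col6a1 had levels of 1.67 and 1.68 in pro-B(+), 0.29 and 0.24 in pro-B(-), 0.70 and 0.69 in Mock and 0.59 and 0.60 in LMO2 cells. Its neighbour Col6a2 had levels of -1.07 and -0.77, -2.35 and -2.31, -1.96 and -1.95, and -1.81 and -1.83. Both were lowest in pro-B(-) cells, and the transductants lay between the parental lines. Col18a1, the basement membrane collagen from which endostatin is cut, had levels of -1.0 and -1.04, -2.55 and -2.70, -0.91 and -0.87, and -0.46 and -0.54. Col16a1, a fibril-associated collagen, had levels of -2.70 and -2.75, -3.99 and -4.15, -2.79 and -3.04, and -2.12 and -2.09. For these genes pro-B(-) cells were lowest and LMO2 cells highest. Col7a1, which forms anchoring fibrils under epithelia, stood between -2.68 and -2.43 on the parental arrays, at -1.32 and -1.33 in Mock cells and at -0.65 and -0.69 in LMO2 cells. Col7a1 was thus higher on every transductant array than on every parental array, as were 19.5% of all probes above background on all 8 arrays. The transductants lay on another slide than the parental lines, so this split follows the slides as much as the groups.

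Over the 17 always-detected genes, a pattern looked for after the values were seen was counted. Both pro-B(-) arrays lay under the other 6 in 10 genes (Col1a1, Col1a2, Col2a1, Col4a1, Col5a1, Col6a1, Col6a2, Col11a2, Col16a1 and Col18a1), which 9.77% of all probes above background on all 8 arrays did. Both pro-B(+) arrays lay above the other 6 in 4 genes (Col2a1, Col3a1, Col6a1 and Col6a2), with 15.1% of all such probes. All 4 transductant arrays lay above all 4 parental arrays in 3 genes (Col7a1, Col11a2 and Col18a1), with 19.5% of all such probes. That last split also runs between the slides. By class, pro-B(-) cells were lowest in 5 of 6 fibrillar, 1 of 3 network and 4 of 8 other genes.

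The summed linear level of the 42 genes, in units of the 75th percentile of the array and with bright probes weighing most, was 11.1 to 11.6 in pro-B(+), 4.65 to 4.77 in pro-B(-), 8.78 to 9.02 in Mock and 10.0 to 10.5 in LMO2 cells. The groups did not overlap. Relative to pro-B(-) cells the sum was 2.42 ± 0.088 times as high in pro-B(+), 1.89 ± 0.048 times in Mock and 2.18 ± 0.081 times in LMO2 cells (SD propagated from 2 arrays a group). Scaling by the median of the array gave 1.99, 1.91 and 1.91 times, so that the order of Mock and LMO2 cells rests on the scaling, and normexp background correction gave 1.72, 1.48 and 1.64 times. The fibrillar sum was 5.6 to 6.33, 2.05 to 2.20, 5.19 to 5.36 and 5.81 to 6.21, and the network sum 0.470 to 0.485, 0.375 to 0.393, 0.340 to 0.353 and 0.414 to 0.428, in the order of groups above. The fibrillar sum was thus lowest in pro-B(-) cells, and the network sum was lowest in Mock cells.

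To ask how collagen genes differ with the T-lineage potential of the line, pro-B(+) was set against pro-B(-) (the parental comparison, in which higher means higher in pro-B(+) cells). Of the 17 always-detected genes 10 were called higher and 2 lower (Benjamini-Hochberg adjusted p under 0.05, limma), and over all always-detected probes 18.0% were higher and 31.0% lower. Of 20 members tested, which need not be above background in both groups, 11 were higher and 2 lower, and of all 23467 probes tested 20.8% were called higher and 28.4% lower. The median log2 difference of the 17 genes was 1.35, against -0.06 over all always-detected probes, and 9 of 17 genes were at least 2-fold higher, against 4.95% of those probes. None was 2-fold lower. Background correction by normexp with an offset of 50 gave a median of 0.49. Scaling each array by its median moved the median of all probes tested from -0.04 to -0.33 and their calls from 4884 higher and 6665 lower to 2949 and 15643, and gave a median of 1.06 for the collagen genes.

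Col2a1 was 5.38-fold higher in the parental comparison (log2 2.43, SE 0.10, adjusted p = 1.7e-05). Col5a3 was 3.98-fold higher (log2 1.99, SE 0.20, adjusted p = 0.00058), where 1 of 2 pro-B(-) arrays was above background. Col1a1 was raised 3.14-fold (log2 1.65, SE 0.040, adjusted p = 2.2e-06). Col1a2 was 2.65-fold higher. These are fibrillar chains, and Col18a1 was 3.03-fold and Col4a1 2.8-fold higher (log2 1.60 and 1.48). Col6a1 and Col6a2 were each 2.65-fold higher, Col5a1 and Col16a1 2.54-fold higher, all with an adjusted p of 0.00012 or less. Col3a1 rose by log2 0.77 (SE 0.23, adjusted p = 0.037), and this call was lost with median or quantile scaling, with normexp, within the 4 arrays of the parental slide and without either pro-B(+) array, either Mock array or pro-B(-) replicate 1. Without that last array the difference was 0.43. Col4a2 differed by log2 -0.08 (SE 0.069, adjusted p = 0.41), beside a Col4a1 difference that was called, and the contrast between these genes was not tested. Col4a2 was called lower with median scaling (-0.36, adjusted p = 0.0040, limma) and with quantile normalization (-0.24, adjusted p = 0.030).

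The genes that fell were Col23a1, a transmembrane collagen, by 0.43 on the log2 scale (SE 0.078, adjusted p = 0.0064), and Col7a1 by 0.19 (SE 0.043, adjusted p = 0.015). Both differences were smaller than 2-fold. A second probe of Col23a1 gave a difference of log2 0.21, opposite in sign and not called, so its direction is uncertain, and the Col7a1 call was lost within the 4 arrays of the parental slide and without replicate 2 of either parental group. Other probes of Col4a4, Col6a6, Col8a2, Col9a1, Col15a1, Col16a1, Col20a1, Col25a1 and Col4a6 also differed in sign from the probe taken in at least 1 comparison, and most of these were too dim to be tested. Of the tested ones, the second probe of Col20a1 was at least 1.46-fold higher in Mock than in pro-B(-) cells, where the probe taken differed by -0.40. The second probe of Col9a1 was at least 1.1-fold higher there, where the probe taken, untested, differed by -1.07. Both second probes were above background on no pro-B(-) array and entered that test only through Mock cells. A second probe of Col18a1, above background on all 8 arrays, was 2.81-fold higher, near the first.

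**Figure D2:**
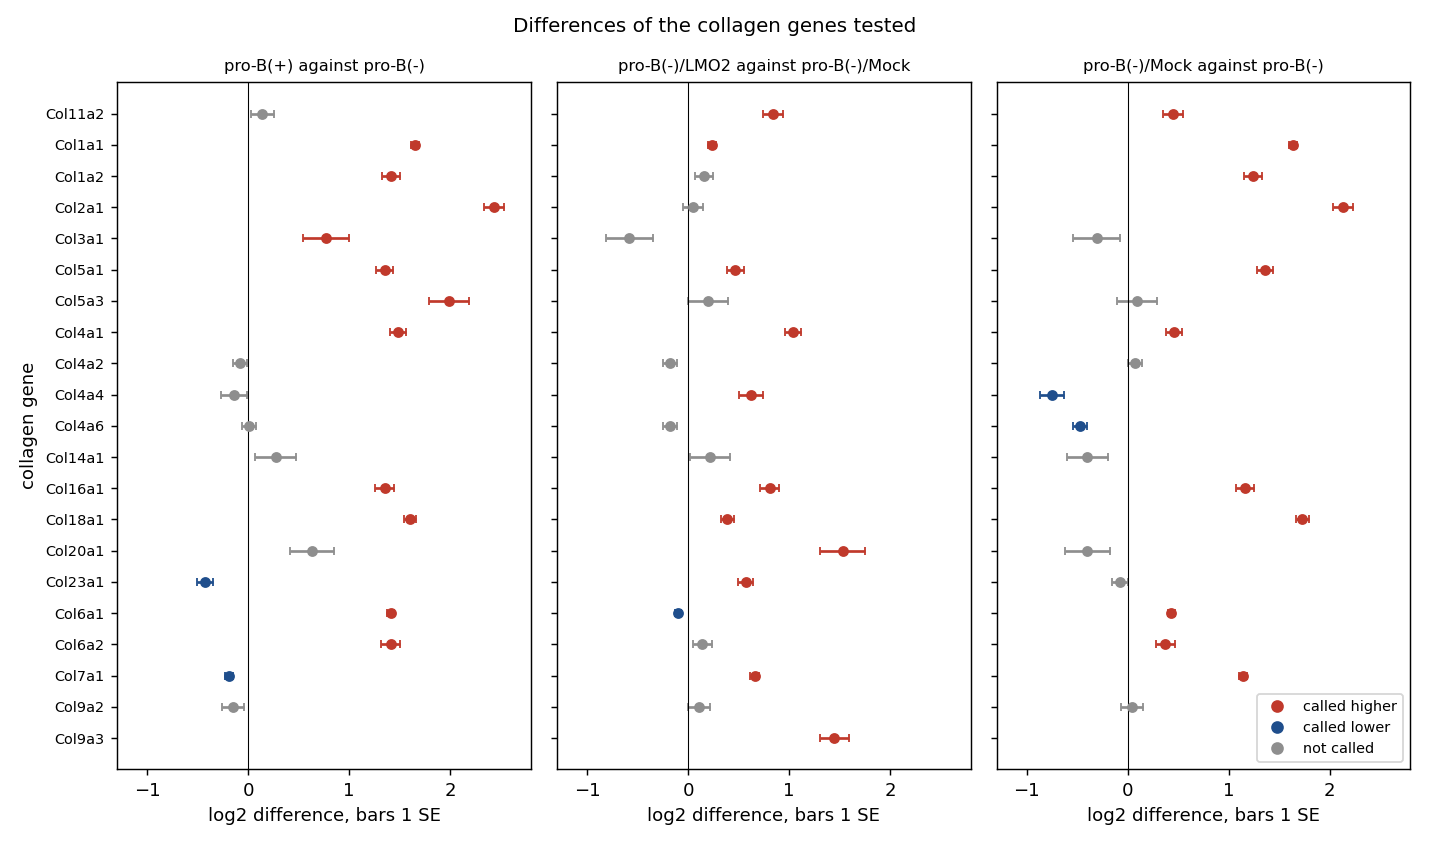
Log2 differences of the collagen genes tested (rows) in each of 3 comparisons (panels), with bars of 1 SE from limma. Red marks genes called higher and blue genes called lower at an adjusted p under 0.05, and grey those not called. In the first panel Col2a1 lies farthest right at 2.43.

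To ask what changed with Lmo2, LMO2 was compared with Mock, within 1 slide. Of the 17 always-detected genes 8 were called higher and 1 lower, and over all always-detected probes 26.8% were higher and 39.2% lower. Of 21 members tested, which need not be above background in both groups, 11 were higher and 1 lower. Of all 22995 probes tested 28.4% were higher and 36.4% lower. The median difference of the 17 genes was log2 0.22, against -0.06 over all always-detected probes, and 1 gene was at least 2-fold higher, against 4.82% of them. With median scaling the median difference was 0.01, while the median of all probes tested moved from -0.04 to -0.25 and their calls from 6534 higher and 8373 lower to 4055 and 12448.

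Col20a1, a fibril-associated collagen, was 2.88-fold higher in LMO2 cells (log2 1.53, SE 0.22, adjusted p = 0.0015), and its second probe was 2.46-fold higher. Col9a3 was at least 2.73-fold higher, a bound since it was not above background in Mock cells. It entered the test only through LMO2 cells, where it is high, so its call adds no support. Col4a1 was 2.06-fold higher (log2 1.04, SE 0.079, adjusted p = 0.00011), while Col4a2 differed by log2 -0.18 (adjusted p = 0.062) and was called lower with median scaling (-0.39), quantile normalization (-0.32) and normexp (-0.17), with the filter on all 8 arrays and without LMO2 replicate 1 (-0.28). Col11a2 and Col16a1 were 1.79-fold and 1.75-fold higher (log2 0.84 and 0.81), and Col7a1 1.58-fold higher. The type I chains moved little. Col1a1 was higher by log2 0.24 (adjusted p = 0.0030) and Col18a1 by 0.39, and both calls were lost with median scaling. Col1a2 differed by log2 0.16 (adjusted p = 0.15). Col6a1 differed by log2 -0.10 (adjusted p = 0.037) and was called lower, which was lost within the 4 arrays of the transductant slide and when any array of these groups was left out.

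The effects of the first and second comparisons share no array, and the difference between them was tested in the same fit. Of 21 members tested the first effect was higher in 11 and lower in 5, and of all 24583 probes tested 29.0% were higher and 25.1% lower. Of the 17 always-detected genes it was higher in 10 and lower in 3, with a median of log2 0.54 against 0.00 over all such probes. The largest differences were those of Col2a1 (log2 2.38, adjusted p = 0.00013), Col5a3 (1.80), Col6a1 (1.51), Col1a1 (1.41) and Col3a1 (1.35). Col23a1 (-1.0), Col7a1 (-0.84), Col4a4 (-0.76) and Col11a2 (-0.70) had the smaller first effect. Col9a3 was called too, but it was above background in LMO2 cells only, so that its difference of effects is no measured size. Thus the differences of the type I and type VI chains were more positive between the parental lines than between the vectors, and those of Col11a2 and Col7a1 were more positive between the vectors. The calls of Col4a1 and Col16a1 (0.44 and 0.54) were lost with normexp.

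Pro-B(-)/Mock was compared with pro-B(-) cells, a comparison that shares its pro-B(-) arrays with the first and lies between slides. Of the 17 always-detected genes 11 were called higher and 1 lower, and over all always-detected probes 28.6% were higher and 29.9% lower. Of 20 members tested 11 were higher and 2 lower, and of all 23047 probes tested 28.5% were higher and 30.8% lower. The median of the 17 genes was log2 0.45, against -0.01 over all such probes, and 7 genes were at least 2-fold higher, against 3.05% of those probes. Over all 42 members with no filter on dim probes the median was -0.29, and the median of all 39378 probes was -0.19.

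Col2a1 was 4.37-fold higher in Mock than in pro-B(-) cells (log2 2.13, SE 0.10, adjusted p = 3.7e-05). Col18a1 was 3.32-fold, Col1a1 3.11-fold, Col5a1 2.57-fold and Col1a2 2.36-fold higher (log2 1.73, 1.64, 1.36 and 1.24). Col16a1 was 2.23-fold and Col7a1 2.21-fold higher. Col4a1, Col6a1 and Col6a2 rose less, by log2 0.46, 0.43 and 0.37, and the Col6a2 call (adjusted p = 0.017) was lost when any of the 4 arrays compared was left out. Col4a4 fell by 0.75 and Col4a6 by 0.47 on the log2 scale, and a dimmer probe of Col4a6, untested, differed by log2 1.28 in the other direction. Col3a1 differed by log2 -0.31 and Col5a3 by 0.09, neither of them called.

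Other genes of stromal cells were read beside the collagen genes. The list of 27 stromal markers held 14 genes above background on all 8 arrays. Of these 13 were higher in the parental comparison, 11 higher and 1 lower with Lmo2, and 12 higher in Mock than in pro-B(-) cells. Over all always-detected probes 18%, 26.8% and 28.6% were higher. Of those tested, which need not be above background in both groups, 17 of 20 were higher in the parental comparison. In LMO2 against Mock cells 14 of 23 were higher and 2 lower, and in Mock against pro-B(-) cells 16 of 19 were higher. Fbn1 and Lama4 entered the parental test only through pro-B(+) cells. Fbn1, Postn and Ccn2 entered the test of Mock against pro-B(-) only through Mock cells. The shares of all probes tested were 20.8%, 28.4% and 28.5% higher and 28.4%, 36.4% and 30.8% lower. Their summed level was 29.2 to 29.3 in pro-B(+), 13.7 to 14.4 in pro-B(-), 30.6 to 32.1 in Mock and 41.0 to 41.7 in LMO2 cells, so that both sums were lowest in pro-B(-) cells, the stromal sum was highest in LMO2 cells and the collagen sum in pro-B(+) cells. Dcn, Lum and Twist1, which mark fibroblasts, were above background on no array. Their part in the collagen values was not tested.

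Fibronectin (Fn1) differed by log2 1.20, 0.38 and 1.77 in the comparisons of the parental lines, the vectors and Mock with pro-B(-), and Sparc, a collagen-binding matrix protein, by 1.53, 0.79 and 1.13. All 6 differences were called. Acta2, the actin of smooth muscle and myofibroblasts, rose in all 3 comparisons, by log2 1.57, 1.54 and 3.53. Ccn2, a matrix-associated growth regulator, was 7.77-fold higher in LMO2 than in Mock cells and at least 5.63-fold higher in Mock than in pro-B(-) cells. Postn, a matrix protein of mesenchyme, was at least 3.78-fold higher in Mock than in pro-B(-) cells and was above background on no parental array. With Lmo2 it was lower (log2 -0.75, adjusted p = 0.0078, limma). Pdgfra, a receptor of mesenchymal cells that TD7 is said to express, had its lowest mean in pro-B(-) cells (-5.17, against -3.72 in pro-B(+) cells and -4.54 in both transductants) and differed by log2 1.45, 0.00 and 0.62. Cxcl12, the chemokine that holds progenitors in the marrow, differed by 0.77, -0.37 and 0.40, all called. Kitl, the ligand of Kit, was called in no comparison.

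Genes that act on collagen chains were counted in the same way, to be read against the shares of all probes tested, which were 20.8% higher and 28.4% lower in the parental comparison, 28.4% and 36.4% with Lmo2, and 28.5% and 30.8% in Mock against pro-B(-) cells. Of 17 modification and folding genes tested 8 were higher and 1 lower in the parental comparison. With Lmo2 7 of 16 were higher and 4 lower, and 8 of 16 were higher and 2 lower in Mock than in pro-B(-) cells. Plod2 entered the parental test only through pro-B(+) cells. Serpinh1, the collagen chaperone HSP47, differed by log2 1.27, 1.06 and 0.98, all called, and Fkbp10, a prolyl isomerase of the endoplasmic reticulum, by 1.48, 0.60 and 1.93. The prolyl 3-hydroxylase family members P3h3 and P3h4 differed by 1.67 and 1.60 in the first comparison. By contrast P4hb, which also acts on many other proteins, differed by 0.17, -0.32 and 0.05. Of 8 processing and cross-linking genes tested all 8 were higher in the first comparison, 6 of 9 were higher and 1 lower in the second, and 7 of 8 were higher in the third. Adamts14 and Loxl3 entered the first test only through pro-B(+) cells and the third only through Mock cells. Loxl4 entered the second only through LMO2 cells. Of the 5 always-detected processing genes all 5 were higher in the first comparison, 2 higher and 1 lower in the second, and 4 higher in the third. Over all always-detected probes 18%, 26.8% and 28.6% were higher and 31%, 39.2% and 29.9% lower. The procollagen proteinase Bmp1 differed by 1.06, 1.03 and 1.71, and the cross-linking enzyme Lox by 1.15, 1.07 and 0.72. Adamts2 differed by 1.63, -0.78 and 1.20, and Adamts14, another proteinase, was at least 1.83-fold higher in the parental comparison.

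Of 7 collagen receptors tested 5 were higher in the first comparison, 3 of 5 were higher and 1 lower in the second, and 3 of 6 were higher in the third. Ddr1, Itga11 and Mrc2 entered the first test only through pro-B(+) cells, as they were above background on no pro-B(-) array. Ddr1 and Itga11 entered the third only through Mock cells. Of the 3 always-detected receptors 2 were higher in the first comparison, 2 higher and 1 lower in the second, and 1 higher in the third. Over all always-detected probes 18%, 26.8% and 28.6% were higher and 31%, 39.2% and 29.9% lower. The receptor tyrosine kinase Ddr2 differed by log2 1.53, 0.75 and 2.06. Its relative Ddr1 was at least 1.66-fold higher in the parental comparison, and Itga11, an integrin chain of fibroblasts, at least 1.89-fold. Of 7 turnover genes all 7 were higher in the first comparison, 2 of 5 were higher and 1 lower in the second, and 3 of 6 were higher and 1 lower in the third. Mmp8 entered the first test only through pro-B(+) cells. Of the 4 always-detected turnover genes all 4 were higher in the first comparison, 1 higher and 1 lower in the second, and 2 higher and 1 lower in the third. Timp1, an inhibitor of matrix metalloproteinases, differed by 2.42, 0.73 and 3.71, and Timp3 by 2.01, 1.41 and 3.07. Mmp8, the neutrophil collagenase, was at least 4.31-fold higher in the parental comparison.

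**Figure D3:**
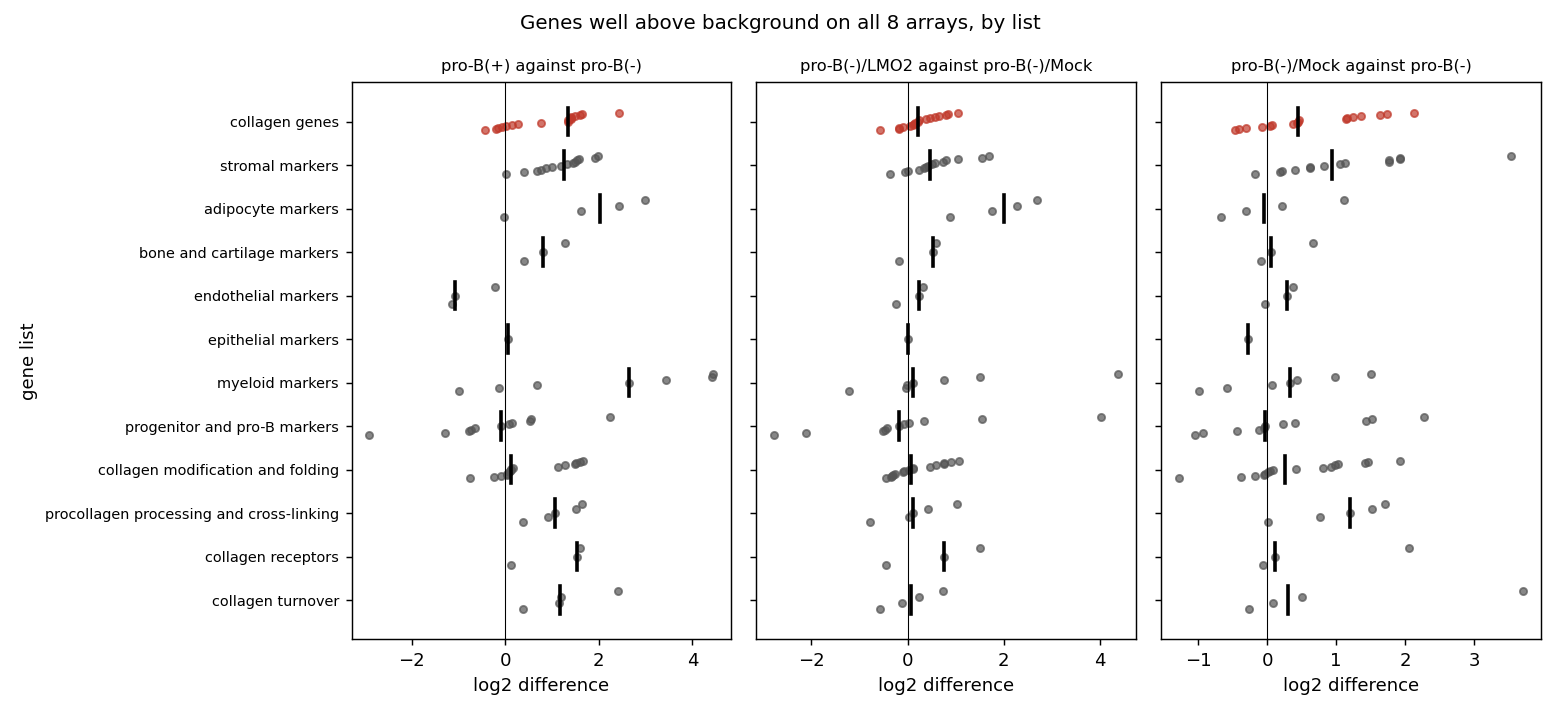
Log2 differences of genes above background on all 8 arrays (points) in each of 3 comparisons (panels), for the collagen genes (red) and the other gene lists (grey), with a black bar at the median of each list. The medians of collagen genes are 1.35, 0.22 and 0.45.

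Markers of other cell types were read beside these values, and their part in the collagen differences was not tested. Their counts are to be read against the shares of all probes tested. These were 20.8% higher and 28.4% lower in the first comparison, 28.4% and 36.4% in the second, and 28.5% and 30.8% in the third. Of 5 adipocyte markers tested 4 were higher in the first comparison and 5 of 5 in the second, while 2 were higher and 3 lower in the third. Of the 4 always-detected ones 3, 4 and 2 were higher in that order, and 2 were lower in the third. Adipoq and Plin1, an adipokine and a lipid droplet protein, were 6.48-fold and at least 11.3-fold higher with Lmo2, and Pparg was 7.90-fold higher in the parental comparison. Plin1 entered the second test only through LMO2 cells and the third only through pro-B(-) cells. Of the bone and cartilage markers, 4 of 4 tested were higher in the first comparison, 4 of 5 in the second, and 2 of 5 were higher and 1 lower in the third. Of the 3 always-detected ones 3, 2 and 1 were higher in that order. Over all always-detected probes 18%, 26.8% and 28.6% were higher and 31%, 39.2% and 29.9% lower. Sox9, the cartilage factor, differed by log2 1.28, 0.54 and 0.67. Sp7, an osteoblast factor, was at least 7.81-fold higher with Lmo2, and Matn1, a cartilage matrix protein, was 5.45-fold higher with Lmo2. Sp7 entered the second test only through LMO2 cells, and Matn1 entered the third only through Mock cells.

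Of the endothelial markers, Cdh5, Tek, Tie1 and Emcn were above background on no array. Pecam1 and Plvap fell by 1.13 and 1.07 on the log2 scale in pro-B(+) cells. They differed by -0.24 and 0.32 with Lmo2 and rose by 0.29 and 0.38 in Mock against pro-B(-) cells, all called. Kdr, between 0.02 and 0.74 on the 8 arrays, was called in no comparison. Of the epithelial markers, Krt8 and Cdh1 were at least 4.16-fold and 5.11-fold higher in the parental comparison. Krt8, Krt18 and Cdh1 entered that test only through pro-B(+) cells, so their calls add no support. Epcam and Foxn1 were above background on no array. Trp63, the only epithelial marker above background on all 8 arrays, stood between 1.31 and 1.73. It differed by log2 0.06, 0.00 and -0.28, of which the third was called. Psmb11 was at least 1.12-fold higher in Mock than in pro-B(-) cells and entered that test only through Mock cells. S100a9, S100a8 and Lyz2, products of neutrophils and macrophages, were at least 610-fold, 193-fold and 126-fold higher in the parental comparison. Lyz2 was at least 10.5-fold higher with Lmo2, where it entered the test only through LMO2 cells. Of 11 myeloid genes tested 9 were higher and 1 lower in the first comparison, against 20.8% and 28.4% of all probes tested. S100a8, S100a9, Ngp and Lyz2 entered that test only through pro-B(+) cells. Of the 7 always-detected myeloid genes 5 were higher and 1 lower, against 18% and 31% of all always-detected probes.

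The list of 15 progenitor and pro-B markers went both ways in each comparison, as did all probes tested. Of those tested, 5 of 14 were higher and 6 lower in the first comparison, 4 of 13 higher and 6 lower in the second, and 6 of 14 higher and 5 lower in the third. The shares of all probes tested were 20.8% higher and 28.4% lower, 28.4% and 36.4%, and 28.5% and 30.8% in the same order. Ptprc, which encodes CD45, differed by log2 0.08, -0.08 and 0.41, of which the third was called. Kit differed by 2.24, 1.55 and 1.52, all called. Cd79b was at least 34.9-fold higher in the parental comparison. It entered the first test only through pro-B(+) cells and the third only through Mock cells. Dntt fell by 2.92 on the log2 scale in the parental comparison and rose by 4.02 with Lmo2, and Rag1 fell by 2.78 with Lmo2. In the count of always-detected genes lowest on both pro-B(-) arrays, the stromal list held 11 of 14, the modification and folding list 7 of 16, the processing and cross-linking list 4 of 5 and the progenitor and pro-B list 3 of 11, beside the 10 of 17 collagen genes and 9.77% of all such probes. Turnover and adipocyte genes gave 2 of 4 each, myeloid genes 2 of 7, receptors and bone and cartilage markers 1 of 3 each, and endothelial and epithelial markers none of 3 and of 1.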

How the data were processed

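Total RNA from 4 groups of pro-B cultures (2 arrays each) was labelled with Cy3 and hybridised to Agilent whole mouse genome arrays. Spot intensity values were deposited as written by Agilent Feature Extraction, which had subtracted background and detrended within the array, with the flags of each spot. The deposited log2 matrix holds values that the authors had normalized to the 75th percentile with GeneSpring.

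Control spots and outlier flags were left out, which left 39378 of 39429 probes, 26550 of them named through a RefSeq gene table (GRCm38.p6). Log2 of the processed signal minus the 75th percentile of each array (604 to 948) was fitted with limma 3.58.1 in R 4.3.3, with 4 group means and 4 residual degrees of freedom. The number of arrays limits precision: an exact permutation test of 2 against 2 cannot go below p = 0.333. Probes well above background on both arrays of a group compared were tested. A gene not above background in a group has a bound, taken against the higher of its own signal and the lowest signal that passed the flag. The fitting code was tested on simulated data.

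The members, gene lists and patterns were chosen with earlier results of these data known. The collagen genes named were Col1a1, Col1a2, Col3a1, Col5a1, Col5a2, Col4a1, Col4a2, Col6a1, Col6a2, Col6a3, Col15a1 and Col18a1, the 5 largest called rises and falls of each comparison, and genes whose probes disagreed in sign. From each list the 3 largest called changes over the comparisons and Pdgfra, Kitl, Cxcl12, Serpinh1, P4hb, Lox, Ddr2, Ptprc and Kit were named. Fn1, Sparc, Kdr, Trp63 and the markers at background were chosen after their values were seen. Alternatives were other scalings, background correction, filters, probes averaged per gene, the trend, the arrays of 1 comparison, a replicate block and leaving out each array.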

Additional observations from a re-analysis of the deposited data

How the results depend on the processing

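The counts of collagen genes called higher stayed within 1.5 times in all 4 comparisons under all alternatives run, and those of genes called lower, which were small, did not. The count lower in pro-B(+) cells (2) was 6 with median scaling, 5 with quantile normalization, 4 with normexp, 1 with no filter, within its own 4 arrays or with probes averaged, and 1 to 2 when 1 array was left out (1 without pro-B(+) replicate 2 or pro-B(-) replicate 2). With Lmo2 the count lower (1) was 4 with median scaling, quantile normalization or the filter on all 8 arrays, 3 with normexp, 2 with the intensity trend or averaged probes, and 0 to 2 when 1 array was left out (0 without either pro-B(+) or either Mock array, 2 without either pro-B(-) array). A replicate block gave 0, and same-numbered arrays did not deviate together (r = -0.0272 to 0.0515), so the numbers pair nothing. With the block the calls of Col3a1 (parental lines) and Col6a1 (Lmo2) were lost and Col1a2 (Lmo2) was called, and no other count moved by over 1.5 times. In pro-B(-)/Mock against pro-B(-) the count lower (2) was 1 with normexp, the filter on all 8 arrays or averaged probes, 5 with no filter, and 2 to 4 when 1 array was left out (4 without pro-B(-) replicate 1). The difference of effects had 3 genes lower with the filter on all 8 arrays, against 5.

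The median of the collagen genes in pro-B(+) against pro-B(-) (1.35) was 1.06 with median scaling, 1.14 with quantile normalization, 0.49 with normexp, 0.32 with no filter, 0.77 with probes averaged and 1.26 to 1.35 when 1 array was left out. With Lmo2 (0.22) it was 0.01 with median scaling and 0.13 to 0.24 when 1 array was left out (0.13 without LMO2 replicate 1). In pro-B(-)/Mock against pro-B(-) (0.45) it was 0.27 with normexp and turned to -0.29 with no filter, where genes under background enter. For the difference of effects (0.54) it was 0.17 with normexp, 0.16 with no filter and 0.88 with averaged probes. The count of collagen genes above all parental arrays (3), an alternative chosen after seeing the data, was 5 with median scaling and 3 to 5 when 1 array was left out (5 without pro-B(-)/Mock replicate 2). Single genes that changed sign and were called in at least 1 of the fits set against each other were Col23a1 in the first comparison (0.12) and Col20a1 (0.37) and Col4a6 (0.41) in the third, all with averaged probes, and Col4a6 in the first (-0.28, median scaling). Differences called in neither fit could also change sign, among them Col11a2 (0.14 to -0.15) and Col14a1 (0.27 to -0.01) in the first comparison with median scaling. The cause of these shifts was not tested. Of the 42 genes 15 were above background on no array, so no difference can be resolved for them.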
